A study of Mus musculus with 6 samples.

Results

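Fatty acid oxidation was examined through 33 nuclear genes that encode its enzymes in mitochondria and peroxisomes. They were picked from the 54532 genes of the count table by gene name, as enzymes of the pathway and with earlier results of these data known, and all 33 had enough counts to be tested. They fall into 6 role groups: 6 genes of the carnitine shuttle, 6 acyl-CoA dehydrogenases, 5 genes for the steps from hydration to thiolysis, 4 auxiliary enzymes of mitochondria, 3 genes of the electron transfer flavoprotein and its acceptor, and 9 peroxisomal genes. RNA came from inguinal white adipose tissue, a depot under the skin, of mice: they were 8 weeks old when a high-fat diet began, and it lasted 15 weeks. The control group of 3 libraries carried floxed Cdo1 alleles and is named WT in the genotype label, and the group of 3 Cdo1AKO libraries had Cdo1 knocked out in adipose tissue. Cdo1 encodes cysteine dioxygenase, which turns cysteine into its sulfinic acid, a precursor of taurine. The Cre driver, the exons flanked by loxP sites, the sex of the mice and whether each library is a separate mouse are not given in the sources used here. The p-values therefore measure only the spread between these libraries, which may be technical.

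In mitochondrial β-oxidation a long-chain acyl-CoA is handed to carnitine, carried across the inner membrane and turned back into acyl-CoA. A cycle of dehydrogenation, hydration, a further dehydrogenation and thiolysis then releases acetyl-CoA, and the electrons of the first step reach the respiratory chain through the electron transfer flavoprotein. Peroxisomes run a related cycle on very long and branched chains. White adipocytes mainly store and release fatty acids, and they express the oxidation enzymes at lower levels than brown adipocytes do.

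Total counts per library ran from 16275184 to 19205804. The median level (CPM, the count as a share of the TMM-scaled library size) of 15 B cell and lymph node stroma markers was 98.6 in control 2, 53.1 in control 3, 51.6 in Cdo1AKO 1 and 54.6 in Cdo1AKO 3, and 0.0614 in control 1 and 0.386 in Cdo1AKO 2. Each group thus held libraries with and without lymph node transcripts. Cdo1AKO 1 and Cdo1AKO 3 lay close to each other, with a median absolute log2 ratio of 0.12 over all genes tested and 0.05 over the 33 genes. Between Cdo1AKO 2 and those 2 libraries it was 0.55 and 0.56 over all genes. Counts of Cdo1AKO 1 and Cdo1AKO 3 still differed more than sampling noise would give, with a mean chi-square of 5.69 per gene, so they were kept as separate libraries. The targeted gene Cdo1 had 887, 432 and 631 CPM in the controls, in the order of their numbers, against 123, 392 and 134 CPM in Cdo1AKO 1, 2 and 3. No Cdo1AKO library reached a control, though Cdo1AKO 2 was close under control 2. By edgeR its log2 fold change was -1.59 ± 0.53 (SE, 3 libraries per group) and its adjusted p = 0.416. Values below are given in the same order of libraries.

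Most of the oxidation genes had lower mean levels in Cdo1AKO: the log2 fold change of 26 of 33 was negative, against 44.0% of the 16623 genes tested. The median was -0.34 over the 33 genes and 0.06 over all genes tested. In 7 of the 33 all Cdo1AKO libraries were below all controls, against 9.73% of all genes, and in 2 all were above, against 8.87%. The 7 were Slc25a20, Crat, Acad11, Eci1, Acot2, Ehhadh and Acox3, and the 2 were Cpt1a and Crot. With edgeR's quasi-likelihood test and Benjamini-Hochberg adjustment over all genes, 0 of 33 members passed at 0.05, as did 0% of all genes. At an unadjusted p under 0.05 the count over all genes was 1724. Of the members 9 were below that p on the lower side, against 5.71% of all genes, and 1 on the higher side, against 4.66%. DESeq2 called 399 genes. Among them Acad11 and Eci1 were lower, 2 of 33 members against 1.56% of all genes, and 0 members were higher, against 0.842%. With limma-voom 0 genes passed. The authors' deposited table had 275 genes with an adjusted p under 0.05, and 0 of them were members. The smallest adjusted p there among the 33 were 0.0725 for Acad11 and 0.0803 for Eci1.

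When the fit also held a term for the presence of lymph node transcripts, 6 of 33 members fell, against 1.87% of all genes, and 0 rose, against 2.26%. The 6 were Cpt2, Slc25a20, Crat, Acadvl, Acad11 and Eci1: 3 genes of the carnitine shuttle, 2 dehydrogenases and 1 auxiliary isomerase. Their log2 fold changes in that fit ran from -0.90 for Cpt2 to -0.74 for Acad11, with adjusted p from 0.0334 to 0.0467 by edgeR. Echs1 with adjusted p = 0.0517 and Pex11a with adjusted p = 0.0595 lay just outside the threshold.

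**Figure D1:**
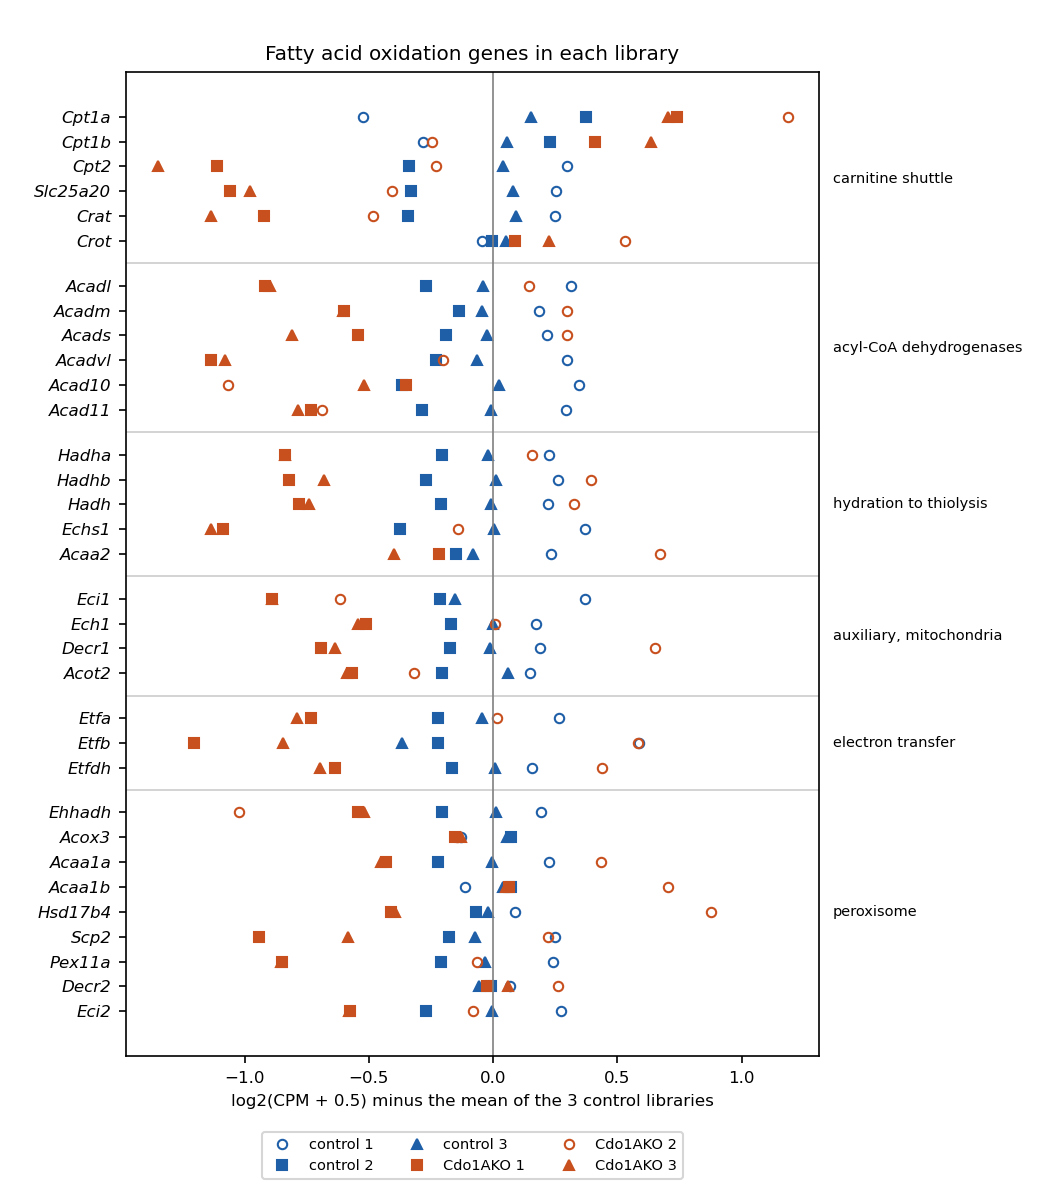
Level of each of the 33 genes in each library as log2(CPM + 0.5) minus the mean of the 3 control libraries (horizontal axis), with genes in rows grouped by role; blue marks control and orange Cdo1AKO, and open circles mark the 2 libraries without lymph node transcripts. Cdo1AKO 1 and Cdo1AKO 3 (orange square and triangle) lie left of all control libraries for 27 and 28 genes. Cdo1AKO 2 (orange circle) does so for 8 and lies to the right of all controls for 13. The share of all genes to the right of all controls was not computed.

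The Cdo1AKO libraries did not share one profile. Cdo1AKO 1 lay below all 3 controls for 27 of the 33 genes, Cdo1AKO 3 for 28 and Cdo1AKO 2 for 8. Over all genes tested these shares were 33.9%, 33.9% and 31.5%. Cdo1AKO 2 lay above all 3 controls for 13 genes and within their range for 12. For these 2 counts the shares over all genes were not computed, so they may not be particular to the oxidation genes. The genes low in Cdo1AKO 2 were the 7 named above and Acad10. Summed over the 33 genes, the level was 8833, 6550 and 7436 CPM in controls and 4644, 8429 and 4713 CPM in Cdo1AKO, so that Cdo1AKO 2 stood inside the control range. Control 1 had the highest level of 18 genes and Cdo1AKO 2 that of 13. These are the 2 libraries without lymph node transcripts. The members' median of -0.34 became -0.67 without Cdo1AKO 2, -0.16 without Cdo1AKO 1 and -0.23 without Cdo1AKO 3.

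Libraries with and without lymph node transcripts were therefore also compared separately. The 4 libraries with them were not alike in all lymphoid content. T cell markers summed to 310 and 178 CPM in control 2 and 3 and to 790 and 809 CPM in Cdo1AKO 1 and 3. Among the 4 libraries with lymph node transcripts, both Cdo1AKO libraries lay below both controls for 27 of 33 genes, against 30.6% of all genes tested. The 3 genes above were Cpt1a, Cpt1b and Crot, and the share of all genes above was not computed. An edgeR fit to these 4 libraries called 22 of 33 lower, against 7.70% of the 17049 genes tested there, and 1 higher, Cpt1a, against 7.65%. The median log2 fold change of the members was then -0.58. It rests on Cdo1AKO 1 and Cdo1AKO 3, the pair that was so alike. For the other pair, Cdo1AKO 2 lay below control 1 for 19 of 33 genes, against 45.1% of all genes, and 18 of these were also lower in the 4 libraries. As 27 of the 33 were lower there, a high overlap is likely. The share of all genes lower in both comparisons was not computed.

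The carnitine shuttle split in direction, with 3 genes lower and 3 higher in the mean and a median of -0.26. The median was -0.44 without Cdo1AKO 2, -0.15 without Cdo1AKO 1 and -0.80 with a filter of 50 counts, which leaves out Cpt1b. Cpt1a and Cpt1b encode the outer-membrane palmitoyltransferases that load long-chain acyl groups onto carnitine, the liver and the muscle type, and malonyl-CoA inhibits both. Cpt1a (mm10 chromosome 19, 3323301 to 3385732, plus strand) had 54.4, 102 and 87.2 CPM in controls and 131, 179 and 128 CPM in Cdo1AKO. All Cdo1AKO libraries were above all controls, with the highest level in Cdo1AKO 2 and the lowest in control 1. Its log2 fold change was 0.85 ± 0.27 (SE), unadjusted p = 0.0192 and adjusted p = 0.396 by edgeR. In the fit to those 4 libraries it was 0.45 ± 0.11, adjusted p = 0.0402. Cpt1b had 8, 17 and 14 counts in controls and 22, 8 and 25 counts in Cdo1AKO. The groups overlapped, the log2 fold change was 0.47 ± 0.49, and few reads were counted for the gene in any library. Gm44502, a gene on the same strand with 0 counts, overlaps Cpt1b over 9459 bases. Reads shared by both genes may have been counted for neither, which was not tested. The counts are therefore no safe measure of the level of Cpt1b. Of 12 skeletal muscle markers, 6 were tested and all 6 were positive. The 12 summed to 48.8 to 122 CPM in controls and 118 to 212 CPM in Cdo1AKO. Most of that sum was Acta1, with 119, 40.7 and 71.3 CPM in controls and 131, 189 and 104 CPM in Cdo1AKO. Myh1, Myh2 and Pvalb were highest in Cdo1AKO 2, with 67, 43 and 90 counts. The defining marker Ckm had 0 counts in all libraries but Cdo1AKO 2, Myh4 had 0 in all 6, and the part of muscle RNA in the Cpt1b counts was not tested. Per kilobase of listed gene length, and with the overlap of Cpt1b as a limit, Cpt1a had a mean of 18.9 CPM and Cpt1b 0.213 CPM in controls. Their coding sequences are 66.9% identical over 2302 aligned bases.

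The shuttle steps after Cpt1 had lower means in Cdo1AKO. Slc25a20 (chromosome 9, 108662088 to 108684641, plus strand) encodes the translocase that exchanges acylcarnitine for carnitine across the inner membrane. It had 171, 114 and 152 CPM in controls and 68.7, 108 and 72.8 CPM in Cdo1AKO. All Cdo1AKO libraries were below all controls, though Cdo1AKO 2 lay close to control 2. It had a log2 fold change of -0.81 ± 0.25, adjusted p = 0.384, and -0.83 ± 0.15, adjusted p = 0.0377, with the lymph node term in edgeR. Cpt2 (chromosome 4, 107903981 to 107923610, minus strand), which rebuilds acyl-CoA inside the matrix, had 266, 171 and 223 CPM in controls and 100.1, 185 and 84.6 CPM in Cdo1AKO. Cdo1AKO 2 stood above control 2, so the groups overlapped. Its log2 fold change was -0.84 ± 0.34, adjusted p = 0.478, and -0.90 ± 0.19, adjusted p = 0.0466, with the lymph node term in edgeR.

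The 2 carnitine acyltransferases for shorter chains went opposite ways in the mean. Crat (chromosome 2, 30400471 to 30415813, minus strand), the acetyltransferase that buffers acetyl-CoA as acetylcarnitine, had 488, 324 and 438 CPM in controls and 216, 293 and 187 CPM in Cdo1AKO. No Cdo1AKO library reached a control. Its fitted log2 fold change was -0.84 ± 0.25, adjusted p = 0.372, and -0.86 ± 0.18, adjusted p = 0.0467, with the lymph node term in edgeR. Crot, the peroxisomal octanoyltransferase that releases shortened chains from peroxisomes, had 39.2, 40.2 and 41.9 CPM in controls and 43.0, 58.5 and 47.3 CPM in Cdo1AKO. All Cdo1AKO libraries were higher, Cdo1AKO 1 by little, and the log2 fold change of 0.30 ± 0.16 had adjusted p = 0.569 by edgeR.

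**Figure D2:**
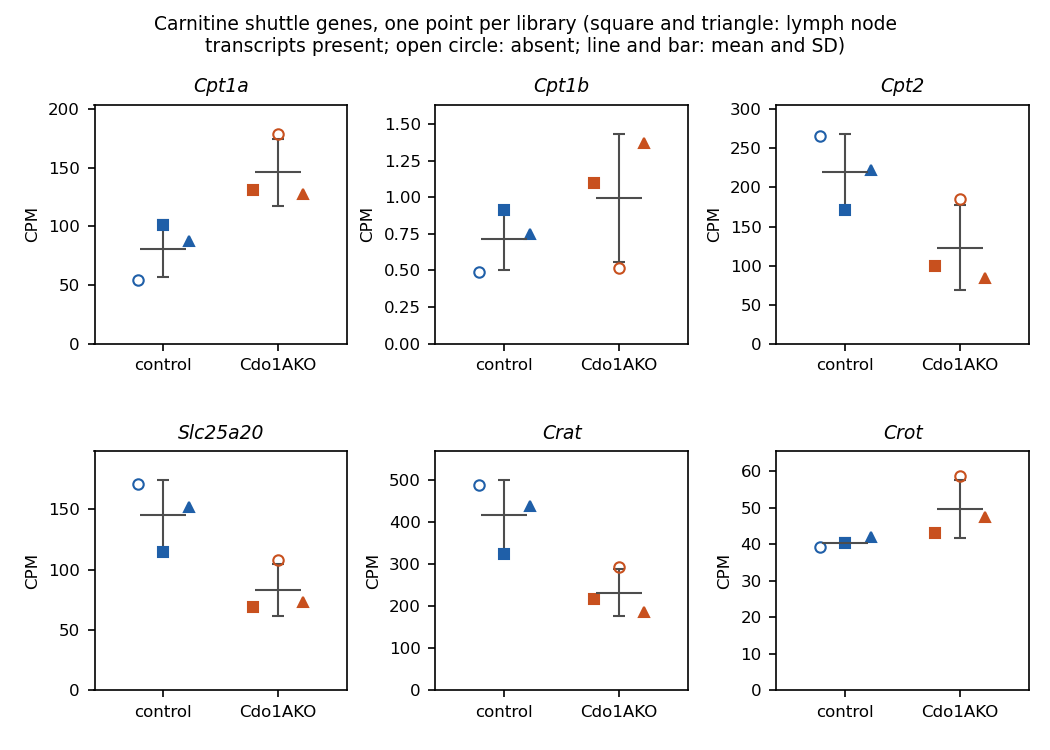
TMM-scaled CPM (vertical axis, from 0) of the 6 carnitine shuttle genes, with 1 point per library, the group mean as a horizontal line and the SD of 3 libraries as a bar; open circles are the libraries without lymph node transcripts. Cpt1a and Crot lie higher in all Cdo1AKO libraries, Slc25a20 and Crat lower, and for Cpt2 the circle of Cdo1AKO 2 reaches into the control range.

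All 6 acyl-CoA dehydrogenase genes had lower means in Cdo1AKO, with a median of -0.57. These flavoenzymes carry out the first dehydrogenation, and they differ in the chain length they prefer. Acadvl (chromosome 11, 70010183 to 70015411, minus strand), for very long chains, had 188, 130 and 146 CPM in controls and 69.4, 133 and 72.3 CPM in Cdo1AKO. Cdo1AKO 1 and 3 were far below every control, and Cdo1AKO 2 was level with control 2. Acadvl had a log2 fold change of -0.76 ± 0.30, adjusted p = 0.473, and -0.81 ± 0.15, adjusted p = 0.0373, with the lymph node term in edgeR. Acadl, for long chains, had 542, 362 and 424 CPM in controls and 230, 482 and 234 CPM in Cdo1AKO. Cdo1AKO 2 lay between control 1 and control 3, and the log2 fold change of -0.49 ± 0.35 had adjusted p = 0.667 by edgeR. Acadm and Acads, for medium and short chains, had log2 fold changes of -0.24 ± 0.30 and -0.28 ± 0.31, and for both Cdo1AKO 2 was the highest of the 6 libraries.

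Acad11 and Acad10 encode dehydrogenases less involved in the classic spiral, and their pattern differed from that of the chain-length series. Acad11 (chromosome 9, 104063377 to 104127725, plus strand) had 235, 157 and 191 CPM in controls and 115, 119 and 111 CPM in Cdo1AKO. The Cdo1AKO libraries were tightly grouped and all below the controls. Its log2 fold change of -0.76 ± 0.18 had adjusted p = 0.345 by edgeR with group as the only term, adjusted p = 0.0452 with the lymph node term and adjusted p = 0.0246 by DESeq2. Acad10 had 41.9, 25.4 and 33.5 CPM in controls and 25.7, 15.4 and 22.8 CPM in Cdo1AKO. Here Cdo1AKO 2 was the lowest library and Cdo1AKO 1 was just above control 2, and by edgeR the log2 fold change was -0.65 ± 0.27 with adjusted p = 0.480.

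Of the 5 genes for the steps from hydration to thiolysis, 4 had lower means in Cdo1AKO, with a median of -0.32. It was -0.77 without Cdo1AKO 2, -0.12 without Cdo1AKO 1, -0.14 without Cdo1AKO 3 and -0.21 without control 1. None of the 5 lay fully below the controls. Hadha and Hadhb encode the α and β subunits of the trifunctional protein, which carries out these steps on long chains at the inner membrane. Hadha had 394, 292 and 332 CPM in controls and 188, 376 and 189 CPM in Cdo1AKO. Hadhb had 334, 232 and 281 CPM in controls and 158, 367 and 174 CPM in Cdo1AKO. Both subunits were low in Cdo1AKO 1 and 3, while Cdo1AKO 2 stood among or above the controls. Their log2 fold changes were -0.44 ± 0.32 and -0.28 ± 0.36, with adjusted p = 0.674 and 0.807 by edgeR.

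Echs1, the short-chain enoyl-CoA hydratase, had 409, 244 and 317 CPM in controls and 149, 287 and 144 CPM in Cdo1AKO. Cdo1AKO 2 lay between control 2 and control 3, and the log2 fold change of -0.75 ± 0.34 had adjusted p = 0.526 by edgeR. Hadh, the 3-hydroxyacyl-CoA dehydrogenase for shorter chains, had a log2 fold change of -0.32 ± 0.34, with 514 CPM in Cdo1AKO 2 against at most 479 CPM in controls. Acaa2, the matrix thiolase, had 183, 140 and 147 CPM in controls and 134, 248 and 118 CPM in Cdo1AKO. Its log2 fold change of 0.09 ± 0.31 came from Cdo1AKO 2 alone: it was -0.32 without that library.

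The genes of the trifunctional protein share a promoter region, which is shown here. The pair had a like profile across libraries, but this was not particular to them. Hadh, on chromosome 3, followed Hadhb as closely, with 479, 355 and 408 CPM in controls and 239, 514 and 246 CPM in Cdo1AKO. In RefSeq (GRCm38.p6) Hadha starts at position 30154980 of chromosome 5 on the minus strand and Hadhb at 30155253 on the plus strand, 272 bases apart. By the coordinates used for counting, Hadha reaches to 30155162 and Hadhb begins at 30155248. Part of the printed stretch thus lies inside Hadha as counted. The 250 bases before the Hadhb start, chr5:30155003-30155252 on the plus strand, are given in lower case since no part is marked.
Hadha and Hadhb: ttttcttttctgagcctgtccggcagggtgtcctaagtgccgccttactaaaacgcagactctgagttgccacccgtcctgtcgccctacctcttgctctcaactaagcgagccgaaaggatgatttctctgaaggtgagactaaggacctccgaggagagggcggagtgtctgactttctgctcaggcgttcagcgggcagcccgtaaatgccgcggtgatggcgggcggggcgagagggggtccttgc

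Promoters were searched for the site bound by PPAR and RXR, the nuclear receptors known to drive many oxidation genes. The motif was 2 copies of AGGTCA in the same direction with 1 base between them, on either strand. Windows from 250 bases before to 50 after the start were found in RefSeq for 28 of the 33 genes. With up to 2 mismatches the motif was in 3 of 28 member windows (10.7%) and in the windows of 4.40% of 27018 genes. With up to 1 mismatch it was in 0 members and 0.644% of all genes. An exact AGGTCA was in 17.9% of members and 18.1% of all genes. The 3 matches were in Echs1, Etfa and Slc25a20, from 3 different role groups, and their windows are printed with the match in capitals. Echs1 is shown on the minus strand at chr7:140116442-140116554, with the match from base -83 relative to the start. Etfa is shown on the minus strand at chr9:55512258-55512370, with the match from base -77 and reading in the other direction. Slc25a20 is shown on the plus strand at chr9:108662134-108662163, with the match from base 6 after the start.
Echs1: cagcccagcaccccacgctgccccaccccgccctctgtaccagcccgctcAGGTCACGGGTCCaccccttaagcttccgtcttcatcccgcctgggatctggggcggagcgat
Etfa: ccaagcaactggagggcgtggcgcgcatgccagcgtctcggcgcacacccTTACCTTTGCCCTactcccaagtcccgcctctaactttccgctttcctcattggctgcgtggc
Slc25a20: ctgaatgtAGGTGAAAGGTCGgcggagccg
A match in letters is a description and not a bound site, and these 3 genes include 1 that was called with the lymph node term, Slc25a20.

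The 4 auxiliary enzymes of mitochondria all had lower means in Cdo1AKO, with a median of -0.42, or -0.64 without Cdo1AKO 2. Eci1 (chromosome 17, 24426683 to 24439316, plus strand), the isomerase that moves double bonds of unsaturated acyl-CoA into place, had 295, 197 and 205 CPM in controls and 123, 149 and 123 CPM in Cdo1AKO. No Cdo1AKO library reached a control. Eci1 had a log2 fold change of -0.82 ± 0.21, with adjusted p = 0.345 by edgeR with group alone, adjusted p = 0.0334 with the lymph node term and adjusted p = 0.0353 by DESeq2. Acot2, the matrix thioesterase that frees fatty acids from acyl-CoA, had 26.8, 20.9 and 25.1 CPM in controls and 16.1, 19.2 and 15.9 CPM in Cdo1AKO. All Cdo1AKO libraries were lower, Cdo1AKO 2 by little against control 2, and by edgeR the log2 fold change was -0.51 ± 0.17 with adjusted p = 0.416. Ech1, a dienoyl-CoA isomerase, and Decr1, the 2,4-dienoyl-CoA reductase, had log2 fold changes of -0.33 ± 0.23 and -0.09 ± 0.39. Decr1 was 341 CPM in Cdo1AKO 2 and at most 139 CPM in the other Cdo1AKO libraries, with 192 to 247 CPM in controls.

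The 3 electron transfer genes had a median of -0.34, and none separated the groups. That median was -0.78 without Cdo1AKO 2, -0.02 without Cdo1AKO 1, -0.11 without Cdo1AKO 3 and -0.13 without control 1. Etfa and Etfb encode the subunits of the flavoprotein that takes electrons from the dehydrogenases, and Etfdh the oxidoreductase that passes them to ubiquinone. Etfdh had 124, 99.0 and 112 CPM in controls and 71.4, 151 and 68.4 CPM in Cdo1AKO. Etfa had 505, 360 and 408 CPM in controls and 252, 424 and 243 CPM in Cdo1AKO. Etfb had 58.4, 33.1 and 29.9 CPM in controls and 16.5, 58.2 and 21.3 CPM in Cdo1AKO. All 3 were lowest in Cdo1AKO 1 and 3 and stood within or above the controls in Cdo1AKO 2. Etfb also differed most between controls, with control 1 near the level of Cdo1AKO 2. The log2 fold changes were -0.20 ± 0.33 for Etfdh, -0.47 ± 0.28 for Etfa and -0.34 ± 0.53 for Etfb, with adjusted p = 0.850, 0.609 and 0.843 by edgeR.

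Of the 9 peroxisomal genes 6 had lower and 3 higher means, with a median of -0.15 that was -0.45 without Cdo1AKO 2 and -0.07 with counts scaled by library totals only. Ehhadh (chromosome 16, 21761287 to 21787807, minus strand), the bifunctional hydratase and dehydrogenase of the peroxisomal cycle, had 127, 96.1 and 112 CPM in controls and 76.0, 54.3 and 77.2 CPM in Cdo1AKO. All Cdo1AKO libraries were lower, and Cdo1AKO 2 was the lowest of all. By edgeR, Ehhadh had a log2 fold change of -0.69 ± 0.20, adjusted p = 0.362, and adjusted p = 0.0802 with the lymph node term. Hsd17b4, the other bifunctional protein, which handles branched chains and bile acid intermediates, had 326, 292 and 302 CPM in controls and 230, 561 and 233 CPM in Cdo1AKO. The 2 proteins catalyse like steps, yet in Cdo1AKO 2 Ehhadh was at 42.8% of control 1 and Hsd17b4 at 172%. The log2 fold change of Hsd17b4 was 0.16 ± 0.38, and it was -0.40 without Cdo1AKO 2.

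Acox3, an oxidase for branched chains, had 76.2, 87.6 and 86.6 CPM in controls and 74.9, 75.2 and 76.2 CPM in Cdo1AKO. The groups did not overlap, but Cdo1AKO 3 and control 1 were almost level, and the log2 fold change of -0.15 ± 0.12 had adjusted p = 0.704 by edgeR. Scp2, the sterol carrier protein whose long form is a peroxisomal thiolase, had 1110.1, 826 and 887 CPM in controls and 486, 1089 and 622 CPM in Cdo1AKO. Pex11a, a membrane protein of peroxisome division, had 75.5, 55.1 and 62.4 CPM in controls and 35.2, 61.0 and 35.1 CPM in Cdo1AKO. For both, Cdo1AKO 1 and 3 were below every control and Cdo1AKO 2 was within the control range. Their log2 fold changes were -0.36 ± 0.34 and -0.56 ± 0.27, with adjusted p = 0.733 and 0.540 by edgeR.

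The peroxisomal thiolase has 2 close gene copies in the mouse. Acaa1a had 242, 177 and 206 CPM in controls and 153, 279 and 151 CPM in Cdo1AKO, and Acaa1b had 54.2, 61.8 and 60.4 CPM in controls and 61.3, 96.0 and 61.0 CPM in Cdo1AKO. Cdo1AKO 2 was highest for both, while Cdo1AKO 1 and 3 were below the controls for Acaa1a and level with them for Acaa1b. Log2 fold changes were -0.10 ± 0.29 and 0.31 ± 0.21, with adjusted p = 0.918 and 0.665 by edgeR. The 2 coding sequences are 96.6% identical over 1275 bases, so reads may have been split between them and the separate values are uncertain. Decr2, the peroxisomal dienoyl-CoA reductase, had 27.2, 25.8 and 24.9 CPM in controls and 25.4, 31.2 and 27.1 CPM in Cdo1AKO. Eci2, an enoyl-CoA isomerase, was 131, 89.6 and 108 CPM in controls and 72.4, 102 and 72.2 CPM in Cdo1AKO. The groups overlapped for both, with log2 fold changes of 0.10 ± 0.14 and -0.41 ± 0.22.

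Reads were not known to be counted by strand, so genes that overlap another gene carry a further limit. Scp2 overlaps Podn on the same strand, with 88067 and 24679 counts summed over the libraries. Etfb overlaps Gm45233 over 13673 bases and Cpt1b overlaps Gm44502 over 9459 bases, each on the same strand. Gm45233 had 1 count and Gm44502 had 0. Reads shared with these genes may have been counted for neither, which was not tested, so the levels of Etfb and Cpt1b are uncertain. Crat, Acadvl, Echs1, Acaa1a and Eci2, among others, overlap genes on the opposite strand that had at most 3579 counts each. Hsd17b4 overlaps a pseudogene, Cd63-ps, on its own strand, with 33949 and 2006 counts. Per kilobase of listed gene length, the highest control means among the 33 were 272 CPM for Ech1, 271 CPM for Scp2, 231 CPM for Etfa, 221 CPM for Acadl and 213 CPM for Eci1.

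**Figure D3:**
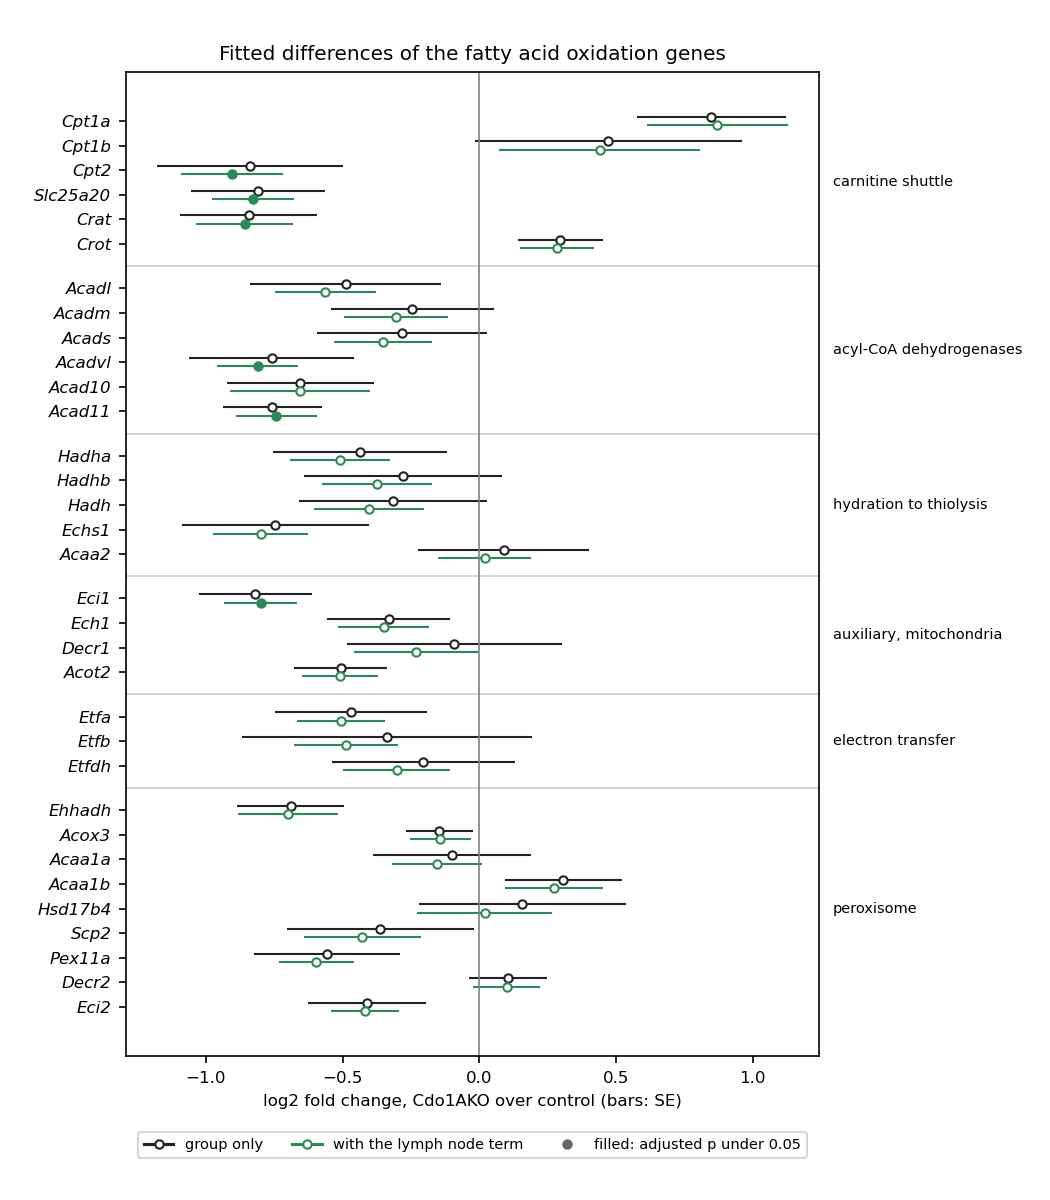
Fitted log2 fold change of Cdo1AKO over control (horizontal axis, bars are 1 SE) for each of the 33 genes, in black from edgeR with group as the only term and in green with the lymph node term; filled points have adjusted p under 0.05. All black points are open, and the filled green points are Cpt2, Slc25a20, Crat, Acadvl, Acad11 and Eci1.

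Malonyl-CoA, made by acetyl-CoA carboxylase, is the inhibitor of Cpt1, so the genes that set its level were listed with the pathway. All 4 (Acaca, Acacb, Mlycd and Mcat) were lower in every Cdo1AKO library than in every control library, against 9.73% of all genes. Their median log2 fold change was -0.79. Acaca, the carboxylase of lipid synthesis, had 414, 305 and 360 CPM in controls and 147, 208 and 142 CPM in Cdo1AKO. Acacb, the mitochondrial form that faces Cpt1, had 1116, 435 and 765 CPM in controls and 280, 115 and 254 CPM in Cdo1AKO. Both were far below the controls, Acacb most so in Cdo1AKO 2. Acaca fell by DESeq2 (adjusted p = 0.000775), and in edgeR its log2 fold change was -1.12 ± 0.22, adjusted p = 0.272, and -1.13 ± 0.15, adjusted p = 0.0222, with the lymph node term. Acacb had -1.83 ± 0.47, adjusted p = 0.345 and 0.0740 with the lymph node term by edgeR and 0.00990 by DESeq2. Mlycd, the decarboxylase that removes malonyl-CoA, had 87.5, 57.4 and 61.8 CPM in controls and 52.2, 55.1 and 47.6 CPM in Cdo1AKO, with a log2 fold change of -0.41 ± 0.19 and adjusted p = 0.534 by edgeR. Mcat, the malonyltransferase of mitochondrial fatty acid synthesis, had -0.46 ± 0.18 and adjusted p = 0.463 by edgeR. Both separated narrowly, with Cdo1AKO 2 close under control 2, for Mcat at 26.8 against 28.8 CPM.

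Of 13 listed regulators of the pathway 12 had negative log2 fold changes, with a median of -0.45. With the lymph node term 3 of them fell, Ppara, Ppargc1a and Nrip1, against 1.87% of all genes, and 0 rose. Ppara, the fatty acid receptor that switches on oxidation genes, had 12.1, 12.6 and 14.9 CPM in controls and 3.65, 3.28 and 5.32 CPM in Cdo1AKO. Ppargc1a, the coactivator of mitochondrial gene expression, had 15.9, 13.5 and 17.1 CPM in controls and 5.60, 6.95 and 5.16 CPM in Cdo1AKO. For both, all 3 Cdo1AKO libraries, Cdo1AKO 2 included, were far below the lowest control. Log2 fold changes were -1.69 ± 0.25 and -1.39 ± 0.21, each with adjusted p = 0.230 by edgeR with group alone. Both fell by DESeq2 (adjusted p = 5.08e-06 and 4.85e-06) and with the lymph node term in edgeR (adjusted p = 0.0222 and 0.0229). Nrip1, a corepressor of oxidation genes that is named here after its values were seen, had 196, 189 and 198 CPM in controls and 77.5, 154 and 81.4 CPM in Cdo1AKO. It was lower in all Cdo1AKO libraries, least so in Cdo1AKO 2, and had a log2 fold change of -0.90 ± 0.29 with adjusted p = 0.396 by edgeR, and -0.98 ± 0.21 with adjusted p = 0.0493 under the lymph node term. Prkaa1, a catalytic subunit of AMP-activated kinase, had 84.3, 72.9 and 80.0 CPM in controls and 60.9, 58.5 and 59.9 CPM in Cdo1AKO, with a log2 fold change of -0.40 ± 0.12 and adjusted p = 0.384 by edgeR. Esrra, a nuclear receptor partner of Ppargc1a, had 53.4, 55.1 and 47.5 CPM in controls and 54.1, 57.5 and 52.9 CPM in Cdo1AKO, with overlapping groups and a log2 fold change of 0.08 ± 0.13.

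Genes beside the 33 in the same routes were mostly lower in the mean. Of 18 other oxidation enzymes and transporters tested 14 were negative, against 44.0% of all genes, with a median of -0.46. All Cdo1AKO libraries were below all controls for 7 of them and above for 2, against 9.73% and 8.87% of all genes. The 2 were Acot8 and Cpt1c, named here after their values were seen. Cpt1c had 4.23, 4.44 and 5.58 CPM in controls and 8.90, 5.85 and 8.07 CPM in Cdo1AKO. Its log2 fold change was 0.68 ± 0.25 with adjusted p = 0.441 by edgeR. Acot4, a peroxisomal thioesterase, had 28.4, 15.4 and 20.7 CPM in controls and 5.90, 4.63 and 7.08 CPM in Cdo1AKO. Its libraries were far apart by group, with a log2 fold change of -1.87 ± 0.30, adjusted p = 0.230 by edgeR, 0.0281 with the lymph node term and 2.32e-05 by DESeq2. Slc22a5, the plasma membrane carnitine transporter, had 91.5, 62.7 and 81.6 CPM in controls and 46.6, 51.1 and 50.1 CPM in Cdo1AKO. No library overlapped, and the log2 fold change of -0.67 ± 0.17 had adjusted p = 0.345 by edgeR and 0.0508 with the lymph node term. Hibch, a hydrolase of valine breakdown, had -0.94 ± 0.15 and adjusted p = 0.0301 with that term, and -0.93 ± 0.32 and adjusted p = 0.417 without it. Pdk4, the kinase that closes pyruvate dehydrogenase when fat is burnt, had 681, 262 and 508 CPM in controls and 355, 205 and 367 CPM in Cdo1AKO, with overlapping groups and a log2 fold change of -0.64 ± 0.40.

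Of 7 acyl-CoA synthetase genes tested 5 were negative, with a median of -0.25. Acsl1, the main long-chain synthetase of adipocytes, had 3426, 2392 and 2945 CPM in controls and 1012, 2972 and 1002 CPM in Cdo1AKO. It followed the common pattern, low in Cdo1AKO 1 and 3 and at the control level in Cdo1AKO 2. The medium-chain synthetases Acsm3 and Acsm5 were instead low in all Cdo1AKO libraries. Acsm3 had 83.8, 27.5 and 51.7 CPM in controls and 11.2, 2.89 and 12.0 CPM in Cdo1AKO (log2 fold change -2.63 ± 0.64, adjusted p = 0.00236 by DESeq2 and 0.345 by edgeR). Acsm5 had 40.3, 15.6 and 27.7 CPM in controls and 9.80, 9.59 and 8.67 CPM in Cdo1AKO (log2 fold change -1.57 ± 0.35, adjusted p = 0.00593 by DESeq2 and 0.327 by edgeR).

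Of 20 genes of peroxisome import and biogenesis 17 were negative, with a median of -0.34. Pex5, the import receptor for matrix enzymes, had a log2 fold change of -0.61 ± 0.18, adjusted p = 0.369 by edgeR and 0.0416 with the lymph node term. Abcd2, the transporter of very long chains, had 774, 689 and 739 CPM in controls and 438, 594 and 440.1 CPM in Cdo1AKO. It did not overlap between groups, with -0.58 ± 0.20 and adjusted p = 0.421 by edgeR. Pex26, the membrane anchor of the export machinery, was higher in every Cdo1AKO library, with 0.41 ± 0.15 and adjusted p = 0.443. Of 5 ketone body genes 3 were negative, with a median of -0.27 and 0 called by edgeR.

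Other contents of the adipose tissue also differed between the libraries. All 18 citrate cycle genes had negative log2 fold changes, with a median of -0.31, and Suclg2, a subunit of succinyl-CoA ligase, was called by edgeR with the lymph node term at -0.76 ± 0.15 and adjusted p = 0.0437. Of 14 adipocyte markers 13 were negative, with a median of -0.58, and their summed level was 43408 to 65527 CPM in controls and 26769, 55234 and 28032 CPM in Cdo1AKO 1 to 3. By this sum, the libraries low in adipocyte markers, Cdo1AKO 1 and 3, were those low in oxidation genes. Single markers differed: 7 of 14 were below all controls in every Cdo1AKO library, Cdo1AKO 2 included, against 9.73% of all genes. The sum of Cdo1AKO 2 held 22121 CPM of Fabp4 and 8301 CPM of Lep, both above every control. The 8 brown and beige adipocyte markers, which include Cpt1b and Ppargc1a, summed to 137, 80.5 and 94.2 CPM in controls and 30.1, 82.9 and 31.0 CPM in Cdo1AKO. Cox8b split in the same way, but single markers differed, with 3 of the 6 tested negative and 3 positive. Ppargc1a and Cidea were below all controls in every Cdo1AKO library, while the sparse Cpt1b was highest in Cdo1AKO 1 and 3. In Cdo1AKO 2 the 8 fibroblast and progenitor markers summed to 4599 CPM, against 1299 to 1826 CPM in the other libraries, and the 5 endothelial markers to 1811 CPM, against 759 to 1014 CPM. All 8 macrophage markers were positive, with a median of 0.46 and summed levels of 338 to 503 CPM in controls and 484 to 679 CPM in Cdo1AKO. The 8 T cell markers, with a median of 1.73, summed to 790 and 809 CPM in Cdo1AKO 1 and 3, 178 and 310 CPM in control 3 and 2, and 9.39 and 9.07 CPM in control 1 and Cdo1AKO 2. Mitochondrially encoded mRNAs, taken with RNA quality in mind, were negative for 10 of 13, with a median of -0.27. They summed to 39004, 30621 and 39703 CPM in controls and 21272.5, 50490.5 and 21987.8 CPM in Cdo1AKO. Cdo1AKO 1 and 3 were thus below all controls and Cdo1AKO 2 above them. The part of RNA quality in the differences was not tested. In bulk tissue, fewer adipocytes and less oxidation RNA in each adipocyte cannot be told apart, and the part of tissue makeup in the differences was not tested.

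**Figure D4:**
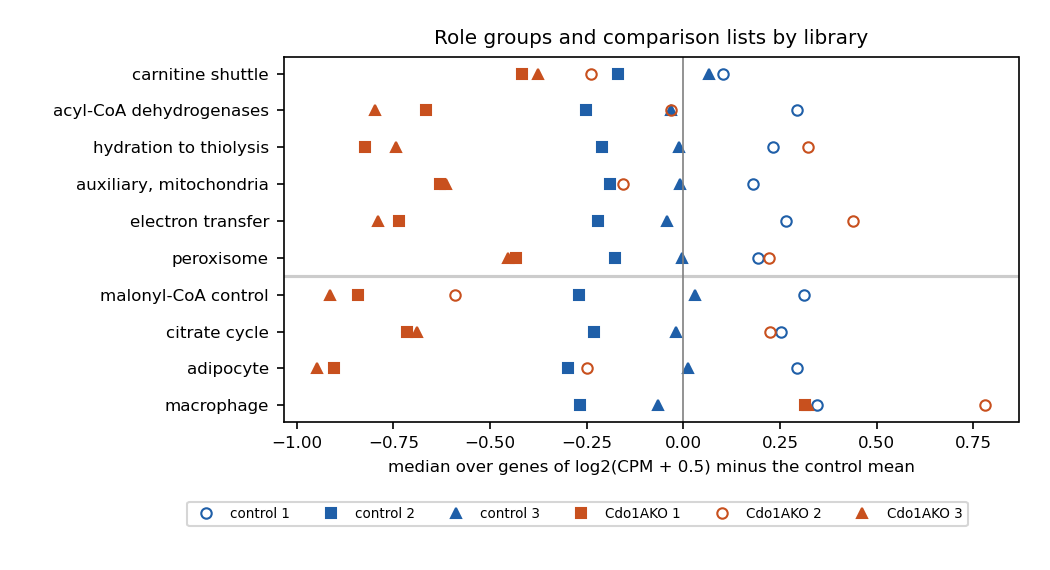
Median over the genes of each list of log2(CPM + 0.5) minus the control mean (horizontal axis), with the 6 role groups above the grey line and 4 comparison lists below it and 1 point per library. Cdo1AKO 1 and 3 lie left of the controls in all 6 role groups, in the citrate cycle and in the adipocyte markers, and Cdo1AKO 2 lies left of all controls for the carnitine shuttle and the genes of malonyl-CoA control, and to the right for hydration to thiolysis, electron transfer, the peroxisome and the macrophage markers.

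The 33 genes can also be sorted by the level of Cdo1AKO 2 relative to control 1, the pair without lymph node transcripts. Both had few T cell transcripts, with marker sums of 9.07 and 9.39 CPM, but the pair was not matched in other content. Fibroblast and progenitor markers summed to 4599 CPM for Cdo1AKO 2 against 1826 for control 1, and endothelial markers to 1811 against 1014 CPM. The part of such content in the ratios below was not tested. Acad10 was at 36.8% of control 1, Ehhadh at 42.8%, Eci1 at 50.5%, Acad11 at 50.6%, Crat at 60.1% and Slc25a20 at 63.2%. Cpt2, Echs1 and Acadvl followed at 69.3%, 70.0% and 70.6%. Hadha, Scp2, Acox3 and Etfb were between 95.4% and 99.8%. At the other end were Cpt1a at 329%, Acaa1b at 177%, Hsd17b4 at 172%, Crot at 149%, Decr1 at 138% and Acaa2 at 136%. These are ratios of 1 library to 1 library, with no replicate check. Of the 9 genes lowest in this pair, 8 were also called lower among the 4 libraries with lymph node transcripts. The exception was Acad10 (log2 fold change -0.28 ± 0.16, adjusted p = 0.274 by edgeR). In that fit 22 of all 33 members were called lower, against 7.70% of all genes, so a high count among any 9 members is likely.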

How the data were processed

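RNA was sequenced from 6 libraries of mouse inguinal adipose tissue. Raw counts per gene and library are what the authors deposited, per the file headers. The submitters' processing notes name HISAT2 2.0.5, the build mm10, featureCounts 1.5.0-p3 and DESeq2 1.20.0 but not what each was used for. FPKM values deposited by the authors were not used, and the authors' deposited log2 fold changes and adjusted p-values are quoted only where named. Genes passing filterByExpr were tested with edgeR 4.0.16 (quasi-likelihood, TMM factors, group as the only term) in R 4.3.3, with Benjamini-Hochberg adjustment over all genes tested and a threshold of 0.05. The lymph node term marks libraries whose median CPM of 15 markers was above 5. DESeq2 1.42.0 and limma 3.58.1 (voom) were alternatives, with other scalings and filters, a replicate block and each library left out.

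The members, lists and tests were chosen with earlier results of these data known. Values in every library are given for a fixed set of central enzymes whatever their result, for the 2 smallest p of each role group, for genes higher in Cdo1AKO and for those called by DESeq2 or with the lymph node term. Of the other pathway lists up to 3 genes by smallest p were taken. Some genes these rules name are not reported here. Promoter sequences are from RefSeq GRCm38.p6, which shares coordinates with mm10. Coding sequences compared between gene copies are the longest open reading frames of annotated transcripts. Depth of 16275184 to 19205804 counts limits genes with few counts. For Cpt1b the overlap with Gm44502 is a further limit.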

Additional observations from a re-analysis of the deposited data

How the results depend on the processing

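Among 17 alternatives, 27 of 33 members kept the direction of their log2 fold change. DESeq2 called 399 genes and 2 members lower, the lymph node term 686 genes and 6 members lower, and the libraries with lymph node transcripts alone 2617 genes, 22 members lower and 1 higher. In that subset the median of all genes was -0.0035, and Acaa2 (-0.20), Acaa1b (-0.0040) and Hsd17b4 (-0.36) turned direction. The other alternatives called 0 genes by edgeR or limma-voom, with 858 to 4707 genes at an unadjusted p under 0.05 when 1 library was left out. Leaving out 1 library moved the members' median between -0.67 (without Cdo1AKO 2) and -0.16 (without Cdo1AKO 1). With 1 library left out, Acaa2 ran from -0.32 to 0.29, Decr1 from -0.67 to 0.14, Etfb from -1.10 to 0.0114, Acaa1a from -0.45 to 0.0542 and Hsd17b4 from -0.40 to 0.38, and the causes were not tested. A replicate block called 0 genes and 0 members, with 909 genes and 5 members at an unadjusted p under 0.05, 26 members negative and a median of -0.42. Deviations of same-numbered libraries correlated with r = -0.66, -0.67 and 0.45. Control 1 and Cdo1AKO 2, which lack lymph node transcripts, had r = 0.71. These values follow lymph node content, so they cannot decide whether the numbers mark a weaker pairing. A filter of 50 counts left out Cpt1b. The groups hold 3 libraries each, which limits every test.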
